A study of Rattus norvegicus with 12 samples.

Results

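The EGF receptor gene and genes for its ligands and its feedback inhibitor were followed on 12 expression arrays of cultured rat astrocytes. The family comprised 7 listed genes: the ligands Hbegf, Areg, Ereg, Tgfa and Btc, the receptor Egfr and the inhibitor Errfi1. For each, the row that the platform annotation pairs with that gene alone was taken, and all 7 had 1 such row among the 18166 named genes. Hbegf was selected on its level on these arrays, being among the largest rises with the compound GW, and the list was drawn up around it with those results known. Differences of the 7 genes between groups with and without GW are therefore given as a description, with no p-value, and counts past the threshold stand there only for completeness.

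The cells were primary astrocytes from the cerebral cortex of Sprague-Dawley rats 1 day old, kept for 2 days in serum-free medium to deplete microglia and meningeal cells. All groups were transfected with siRNA, and treatment lasted 3 h. The groups, of 3 arrays each, were siRNA against SHP plus interferon-γ plus GW (siSHP_IFNg_GW), control siRNA with interferon-γ and GW (siCon_IFNg_GW), control siRNA with interferon-γ (siCon_IFNg) and control siRNA alone (siCon). No group had GW without interferon-γ or SHP siRNA without GW. The compound is known here by the label GW alone, without a dose. Titles number the arrays 1, 2 and 3 within each group, and no label says whether a number is a culture of its own; the p-values rest on array-to-array spread, which can be technical.

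The EGF receptor is a receptor tyrosine kinase that signals through the Ras-ERK and PI3K pathways once a ligand has bound. Its ligands are made as membrane-anchored precursors, from which metalloproteases such as Adam10 and Adam17 cut the soluble factor. Errfi1, also called Mig6, binds the receptor's kinase domain and blocks it, and its gene is switched on by receptor signalling as a feedback. In astrocytes the pathway is known for its role in proliferation and in the reactive state after injury.

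Values are log2 expression as deposited, and differences are on the log2 scale, so that 1 unit is a doubling. A level was called near background when it lay under 5.39, the 95th percentile of the mean values of 227 olfactory and vomeronasal receptor genes. Hbegf, Egfr and Errfi1 lay above this level on 12 arrays, Areg on 9, Ereg on 6 and Btc on 2, while Tgfa lay above it on 0. The arrays numbered 1 stood apart from the others, most visibly in markers of meningeal and vascular cells, whose median over 11 genes was 4.93 to 5.69 on the arrays numbered 1 and 7.57 to 8.50 on those numbered 2 and 3. All 14 measured microglia markers had means above background, with medians per array of 8.53 to 8.73 in siSHP_IFNg_GW, 8.32 to 8.55 in siCon_IFNg_GW, 9.0 to 9.29 in siCon_IFNg and 8.83 to 9.60 in siCon. All 10 measured astrocyte markers were above background, with medians of 10.61 to 11.13. In bulk RNA, fewer cells of a type and less RNA per cell cannot be told apart. Nr0b2, the gene of SHP, lay under background on all 12 arrays (4.96 ± 0.16 in siSHP_IFNg_GW and 4.80 ± 0.11 in siCon_IFNg_GW; SD, n = 3), so these arrays gave no check of the knockdown.

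The promoters of Hbegf, Errfi1 and Areg, the 3 members whose groups with and without GW did not overlap under control siRNA, are shown because these genes were higher together. Each window runs from 250 bases before to 50 bases after the gene start and is credited to RefSeq, build GRCr8, read 5′ to 3′ on the gene's strand. Capitals mark the cAMP response element TGACGTCA and its 5-base core TGACG, searched on both strands. The Hbegf window lies at chr18:28390171-28390470 (- strand), that of Errfi1 at chr5:166606591-166606890 (+ strand) and that of Areg at chr14:17265592-17265891 (- strand).
Hbegf: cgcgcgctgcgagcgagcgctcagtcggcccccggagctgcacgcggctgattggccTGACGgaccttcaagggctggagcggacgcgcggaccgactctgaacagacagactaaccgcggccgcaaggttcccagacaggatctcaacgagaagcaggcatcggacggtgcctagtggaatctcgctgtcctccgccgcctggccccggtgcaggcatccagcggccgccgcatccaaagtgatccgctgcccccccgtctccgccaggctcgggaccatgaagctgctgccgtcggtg
Errfi1: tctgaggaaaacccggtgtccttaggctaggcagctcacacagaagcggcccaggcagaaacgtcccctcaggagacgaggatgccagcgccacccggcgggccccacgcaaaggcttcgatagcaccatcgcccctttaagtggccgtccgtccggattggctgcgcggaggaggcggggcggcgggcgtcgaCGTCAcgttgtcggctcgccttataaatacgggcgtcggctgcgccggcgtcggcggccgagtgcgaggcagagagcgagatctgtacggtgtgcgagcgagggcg
Areg: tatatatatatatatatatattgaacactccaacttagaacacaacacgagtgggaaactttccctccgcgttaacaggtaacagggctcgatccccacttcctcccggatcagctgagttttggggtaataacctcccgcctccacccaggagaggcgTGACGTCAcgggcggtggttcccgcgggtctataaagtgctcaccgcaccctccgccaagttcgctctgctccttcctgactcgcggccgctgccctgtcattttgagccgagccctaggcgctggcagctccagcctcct

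A promoter was given for 6 members, all but Ereg. The element TGACGTCA stood in 1 of the 6, that of Areg, where it began 91 bases before the start, and in 1.83% of the 33469 promoters of 300 bases. The core TGACG, which lies on both strands within the Areg element, was found in 3 of the 6 and in 21.2% of all; it began 193 bases before the start in Hbegf and 56 bases in Errfi1, on the opposite strand. The AP-1 motif TGANTCA was found in 0 of the 6 and in 7.33% of all. A match describes the letters and is not a measured binding site. In the gene order of this build, Btc, Areg, Ereg and Epgn are consecutive protein-coding genes on chromosome 14.

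Hbegf, which encodes heparin-binding EGF-like growth factor, had the largest difference of the 7 genes with GW. Its levels on the arrays numbered 1, 2 and 3 were 10.32, 9.92 and 9.57 in siCon_IFNg_GW, against 8.19, 6.95 and 7.23 in siCon_IFNg. The lowest array with GW lay above the highest without it. The fitted difference was 2.48 ± 0.31 (SE, n = 3 per group), or 5.57-fold, the 11th largest rise among the 18166 genes. Within numbers 1, 2 and 3 it was 2.12, 2.97 and 2.34. Without the arrays numbered 1 it was 2.66.

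Errfi1, the feedback inhibitor, was also higher with GW. It stood at 10.60, 10.63 and 10.35 in siCon_IFNg_GW, against 9.07, 9.06 and 9.09 in siCon_IFNg. The groups did not overlap, and the 3 arrays without GW lay close together. The difference was 1.45 ± 0.18 (SE), or 2.74-fold, with 1.53, 1.57 and 1.26 in the 3 numbers.

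Areg, the gene of amphiregulin, was higher with GW by a smaller amount. It had 6.19, 6.03 and 6.12 in siCon_IFNg_GW, against 5.80, 5.34 and 5.22 in siCon_IFNg, where 2 of the 3 arrays were near background. The difference was 0.66 ± 0.20 (SE), and 0.39, 0.69 and 0.90 within the numbers. For its neighbour Ereg, the gene of epiregulin, the values were 5.54, 5.52 and 5.31 in siCon_IFNg_GW, against 5.42, 5.06 and 4.90 in siCon_IFNg, with overlapping groups and a difference of 0.33 ± 0.19.

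In the fit without a block, the remaining 3 genes had differences near or under their SE. Egfr stood at 7.79, 8.28 and 8.28 in siCon_IFNg_GW, against 7.77, 8.10 and 8.29 in siCon_IFNg, a difference of 0.06 ± 0.20 (SE), with a 95% interval of -0.38 to 0.51. With title number as a block its SE was 0.09 and the interval -0.13 to 0.26. Btc, the gene of betacellulin, had 0.13 ± 0.28, with 1 array just above background, and Tgfa, the gene of transforming growth factor alpha, had -0.17 ± 0.16 with both groups near background. With the block the SEs of Btc and Tgfa were 0.13 and 0.11. Past an adjusted p of 0.05, 2 of the 7 members were higher with GW (Hbegf and Errfi1), beside 0.633% of all genes, and 0 were lower, beside 0.253%. The count was 3, with Areg, without the arrays numbered 1, beside 6.47%. It was 0 without those numbered 2, 0 without those numbered 3 and 1 (Errfi1) on only the 6 arrays compared. Of all genes, 0, 0 and 4 passed in these settings, against 161 in the fit to all arrays. Groups did not overlap for 3 members (Hbegf, Errfi1 and Areg), all higher, beside 8.05% of all genes. Since results of this comparison were known when the list was made, nothing is read from these counts. Over the same arrays 13 of the 14 microglia markers were lower with GW (median difference -0.50). Of these, 0 were past the threshold without a block and 9 with title number as a block, beside 2.91% of all genes lower with the block. Their summed level was 12.29 to 12.71 in siCon_IFNg_GW and 12.84 to 13.28 in siCon_IFNg (log2 of the sum), with 0 of the 14 near background in the mean. Their part in the differences of the family was not tested.

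**Figure D1:**
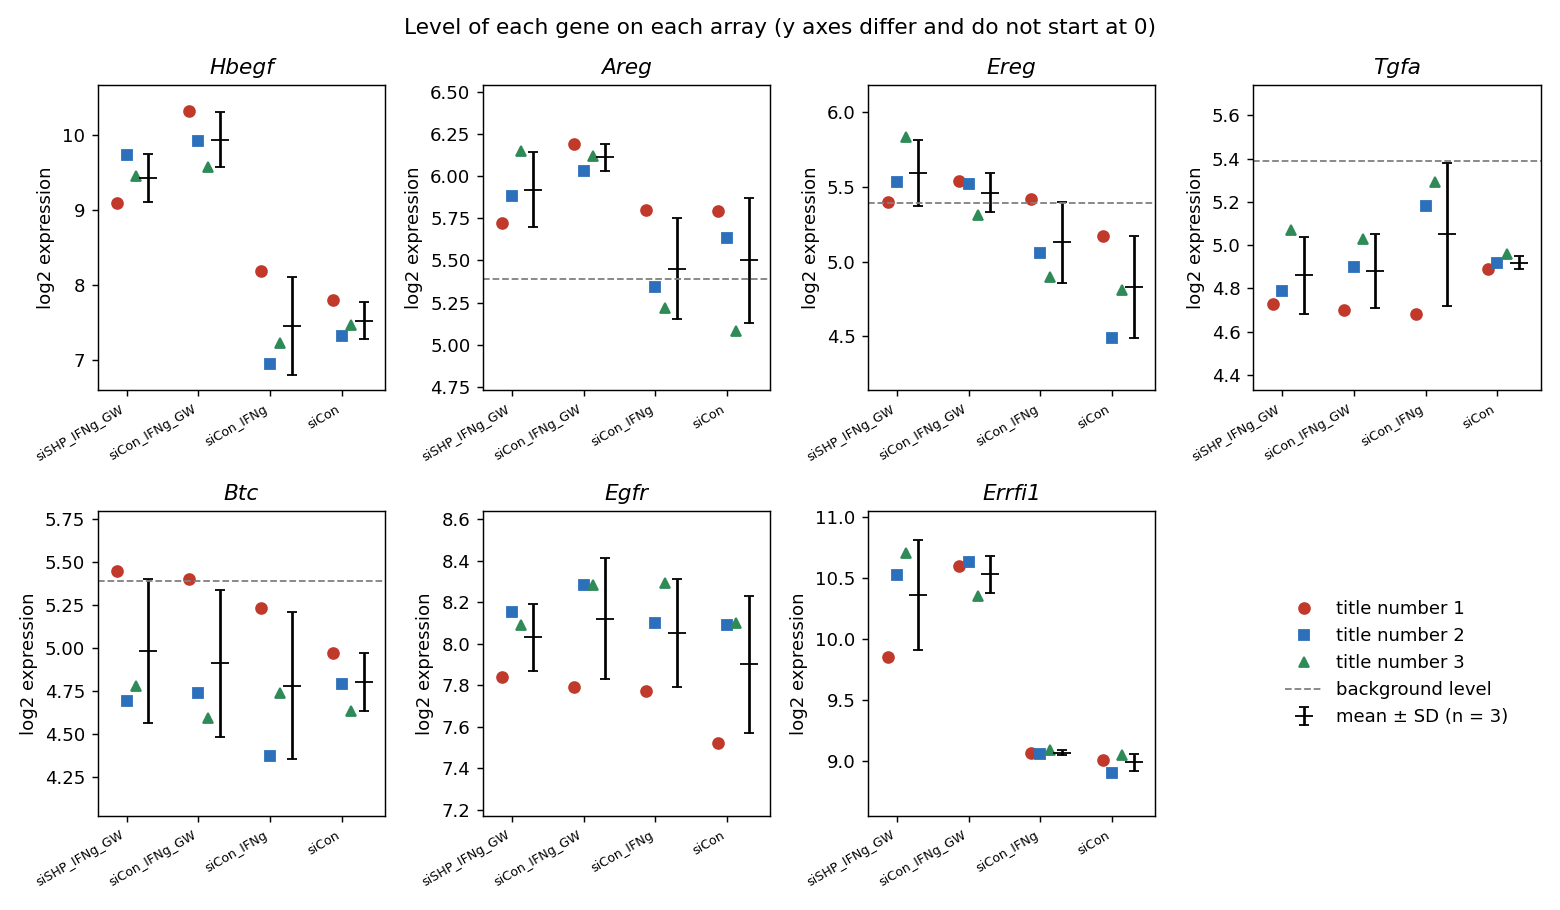
Log2 expression of the 7 genes on each array, by group, with title numbers 1 to 3 as separate symbols, the mean ± SD of each group beside them and the background level of 5.39 dashed where it falls in the range. Hbegf (9.57 to 10.32) and Errfi1 (10.35 to 10.63) in siCon_IFNg_GW lie above every array without GW; Egfr is lower on the arrays numbered 1 in each group.

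Interferon-γ alone left the family without a detected change. In siCon_IFNg against siCon, 0 of the 7 members passed by limma (Benjamini-Hochberg adjusted p = 1 for each), beside 0.121% of all genes in either direction, and 0 passed at an unadjusted p of 0.05, which 999 genes did. Hbegf had 8.19, 6.95 and 7.23 in siCon_IFNg, against 7.80, 7.32 and 7.47 in siCon. It was higher in number 1 and lower in numbers 2 and 3 (difference -0.07 ± 0.31 SE, 95% interval -0.75 to 0.61). Errfi1 differed by 0.08 ± 0.18 (SE; -0.32 to 0.49), at 9.07, 9.06 and 9.09 in siCon_IFNg, against 9.01, 8.90 and 9.05 in siCon. Its groups did not overlap, as for 3.59% of all genes in this direction. Egfr differed by 0.15 ± 0.20 (-0.29 to 0.59) and Ereg, near background in all siCon arrays, by 0.30 ± 0.19 (-0.12 to 0.72). With title number as a block the Egfr interval was -0.04 to 0.34. These siCon_IFNg arrays are also those of the GW comparison.

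SHP siRNA was compared with control siRNA under interferon-γ plus GW. By limma 0 of the 7 members passed (adjusted p = 1 for each), beside 0% of all genes, and 0 members and 416 genes passed at an unadjusted p of 0.05. Hbegf had 9.10, 9.73 and 9.46 in siSHP_IFNg_GW, against 10.32, 9.92 and 9.57 in siCon_IFNg_GW. It was lower with SHP siRNA in 3 of 3 numbers, but by 1.22 in number 1 and by 0.19 and 0.11 in the others. The fitted difference was -0.51 ± 0.31 (SE; 95% interval -1.18 to 0.17), and -0.15 without the arrays numbered 1. Errfi1 stood at 9.85, 10.52 and 10.70 in siSHP_IFNg_GW, against 10.60, 10.63 and 10.35 in siCon_IFNg_GW, with differences of -0.75, -0.11 and 0.35. For Areg they were -0.46, -0.14 and 0.03. Number 1 thus had the lowest difference for Hbegf, Errfi1 and Areg alike. For the other 4 genes the fitted differences ran from -0.09 (Egfr) to 0.13 (Ereg), with an interval of -0.53 to 0.35 for Egfr. With title number as a block the Egfr interval was -0.28 to 0.1. This comparison shares the siCon_IFNg_GW arrays with that of GW, and the intervals leave room for changes of either sign.

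**Figure D2:**
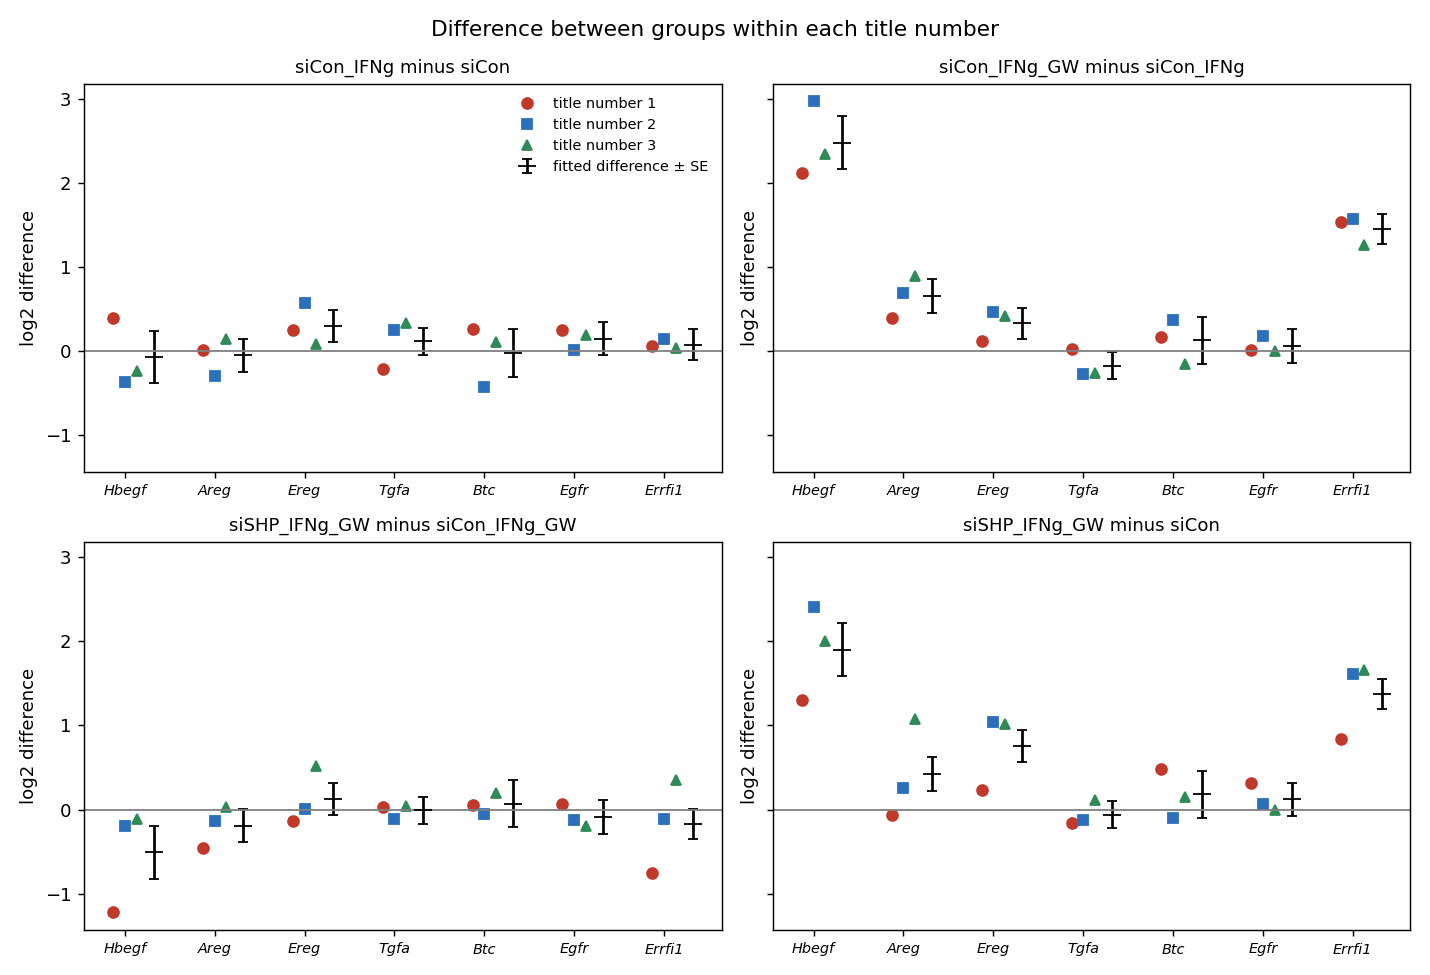
Log2 difference of each gene in 4 comparisons, with 1 symbol per title number and the fitted difference ± SE beside it. Hbegf and Errfi1 are above 0 in every number in the comparisons whose first group had GW and whose second had not; in the siRNA comparison their lowest points, -1.22 and -0.75, are those of number 1.

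The comparison of siSHP_IFNg_GW with siCon has no array in common with the GW comparison. The siRNA, interferon-γ and GW all differ between its groups, so it isolates none of them, and the title numbers still link its arrays to the others. It again sets GW against no GW within the 12 arrays on which Hbegf was selected, so its values too are a description. Hbegf was 3.74-fold higher, with 9.10, 9.73 and 9.46 in siSHP_IFNg_GW, against 7.80, 7.32 and 7.47 in siCon. The difference was 1.90 ± 0.31 (SE, n = 3 per group), positive in 3 of 3 numbers at 1.30, 2.41 and 2.00. Errfi1 was 2.58-fold higher, with 9.85, 10.52 and 10.70 in siSHP_IFNg_GW, against 9.01, 8.90 and 9.05 in siCon (1.37 ± 0.18 SE), by 0.84, 1.61 and 1.66. For both genes the groups did not overlap and number 1 had the smallest difference.

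Ereg had 5.40, 5.53 and 5.83 in siSHP_IFNg_GW, against 5.17, 4.49 and 4.81 in siCon. All siCon arrays were near background, so the fold is given only against the background level. The siSHP_IFNg_GW mean of 5.59 was 1.15-fold above that level, a value without an error, and the array at 5.40 lay close to it. Areg had 5.72, 5.88 and 6.15 in siSHP_IFNg_GW, against 5.79, 5.63 and 5.08 in siCon, and its groups overlapped (0.42 ± 0.20 SE; 0.66 without the arrays numbered 1). Egfr had 7.84, 8.15 and 8.09 in siSHP_IFNg_GW, against 7.52, 8.09 and 8.10 in siCon (0.12 ± 0.20). Past an adjusted p of 0.05, 2 of 7 members were higher (Hbegf and Errfi1), beside 0.661% of all genes, and 0 were lower, beside 0.539%. Groups did not overlap for 3 members, Hbegf, Ereg and Errfi1, beside 7.16%. The number past the threshold was 3, with Ereg, with title number as a block, beside 3.30%, and 4, with Areg and Ereg, without the arrays numbered 1, beside 5.63%. It was 0 without those numbered 2, 0 without those numbered 3 and 1 (Hbegf) on only the 6 arrays compared. Of all genes, 0, 0 and 100 passed in these settings, against 218 in the fit to all arrays. Leaving out 1 array, the member count was 0 without replicate 2 of either group and 1 (Errfi1) without replicate 3 of either group. The counts over all genes fell too, to 21 without replicate 2 of siCon and 28 without that of siSHP_IFNg_GW. Without replicate 3 they were 41 (siCon) and 30 (siSHP_IFNg_GW). As in the GW comparison, nothing is read from these counts.

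Across the groups, Hbegf ran from 9.94 ± 0.37 in siCon_IFNg_GW through 9.43 ± 0.32 in siSHP_IFNg_GW and 7.53 ± 0.24 in siCon to 7.46 ± 0.65 in siCon_IFNg (SD, n = 3). Errfi1 had the same leading pair, at 10.53 ± 0.15 and 10.36 ± 0.45, above 9.07 ± 0.02 in siCon_IFNg and 8.99 ± 0.07 in siCon. For both, the 2 groups with GW overlapped each other. Egfr had means of 8.03 to 8.12 in the 3 treated groups and 7.90 in siCon, with SDs of 0.16 to 0.33. It varied more by title number than by group: its 4 arrays numbered 1 lay at 7.52 to 7.84 and the other 8 at 8.09 to 8.29. Btc went the other way, at 4.97 to 5.45 on the arrays numbered 1 and 4.37 to 4.79 on the others, but only 2 of its 12 values lay above background. Whether the lower meningeal markers on the arrays numbered 1 have a part in this was not tested.

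With the mean of each title number subtracted, Errfi1 was 13th of 18165 genes in likeness to Hbegf over the 12 arrays (Pearson r = 0.98). The 5 genes most like Hbegf were Srf, the serum response factor gene (r = 0.993), the immediate-early gene Ier2 (0.993), Spry4, an inhibitor of receptor tyrosine kinase signalling (0.99), the insulin receptor substrate gene Irs2 (0.988) and the clock gene Per1 (0.987). Ier2 and the transcription factor gene Nfil3 were most like Errfi1 (0.99 and 0.989). Areg and Ereg had r = 0.86 and 0.81 with Hbegf and ranked 562 and 825, and Egfr had 0.44. Rnf34 and Yrdc were most like Areg (0.947 and 0.944), and Dlx6 and Fam110d most like Egfr (0.915 and 0.911), Fam110d being near background on 11 of the 12 arrays. These values describe the arrays, which split into 6 with and 6 without GW, and carry no test.

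**Figure D3:**
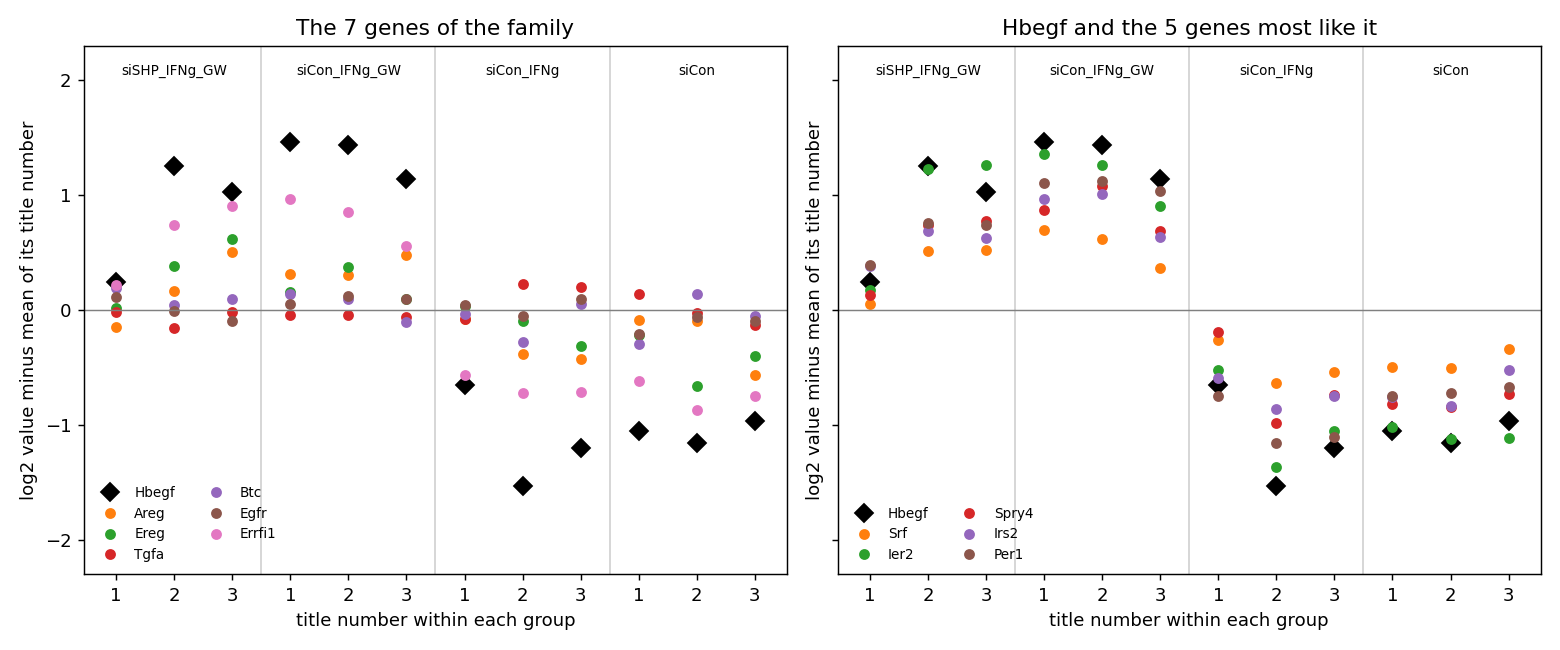
Log2 values minus the mean of their title number on the 12 arrays, for the 7 genes (left) and for Hbegf with the 5 genes most like it (right). Hbegf (diamonds) and Errfi1 lie above 0 on the 6 arrays with GW and below it on the 6 without, and number 1 of siSHP_IFNg_GW lies nearest to 0 among the arrays with GW.

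Other genes of the pathway were taken from 6 lists, of which 72 entries had a row. The lists were drawn up with earlier results of these data known. Their counts and p-values are therefore a description in every comparison, and no enrichment is read from them. In the GW comparison Socs5, which promotes breakdown of the receptor, rose by 0.82 ± 0.15 (SE, limma adjusted p = 0.0356). It was the 1 gene of 18 for receptor turnover and inhibition that passed (list median 0.05), beside 0.633% of all genes higher. None passed among 9 other ErbB receptors and ligands (median -0.07), 10 genes of ligand shedding and presentation (-0.09), 12 of the adaptors and ERK cascade (-0.05), 8 of the PI3K and PLC arm (-0.07) and 15 growth factor responsive genes (0.41, against a median of 0.00 for all genes). With title number as a block 7 of those 15 genes were higher and 0 lower, beside 3.64% and 2.91% of all genes. They included Lif, a cytokine of the IL-6 family (1.96, adjusted p = 0.0242), and Fosl1, an AP-1 subunit (1.80, adjusted p = 0.0106), both named after their values were seen.

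In the block fit of the GW comparison 4 of 18 genes for receptor turnover and inhibition were higher and 0 lower. Higher and lower calls numbered 0 and 1 of 9 other ErbB receptors and ligands and 0 and 2 of 10 shedding genes. They numbered 1 and 0 of 12 in the adaptors and ERK cascade and 1 and 1 of 8 in the PI3K and PLC arm. Of all genes, 3.64% were higher and 2.91% lower. Without the arrays numbered 1, the calls were 3 and 1 of the shedding genes (median 0.04) and 0 and 1 of the other ErbB genes. They were 4 and 2 for receptor turnover and inhibition, 1 and 1 in the adaptors and ERK cascade and 2 and 1 in the PI3K and PLC arm. Of all genes, 1176 were higher and 905 lower in that fit. The genes of these lists were also named after their values were seen. Spred2 and Spred3, inhibitors of Ras-ERK signalling, were higher (0.37 and 0.66; adjusted p = 0.0275 and 0.0248), as were Socs5 and its relative Socs4 (0.30, adjusted p = 0.0356). The kinase gene Braf was higher by 0.44 (adjusted p = 0.019) and Pik3cb, a PI3K catalytic subunit, by 0.59 (adjusted p = 0.0192). These rises are against siCon_IFNg, not siCon. In siCon_IFNg against siCon, Spred2, Socs5 and Pik3cb differed by -0.31, -0.25 and -0.3. Spred3, Braf and Socs4 differed by -0.11, -0.1 and 0.15 there, and none of these genes passed with or without the block. Erbb3, a neuregulin receptor, was lower (-0.56, adjusted p = 0.0348), as were the metalloprotease gene Adam9 (-0.36), the tetraspanin gene Cd9, whose product associates with the membrane form of HB-EGF (-0.29), and the kinase gene Akt2 (-0.37). The metalloprotease gene Adam17 differed by -0.14 and passed in neither fit; Adam10 had no row of its own.

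In siSHP_IFNg_GW against siCon, Myc rose by 2.22 ± 0.34 (SE, limma adjusted p = 0.0136) and Phlda1 by 1.21 ± 0.24 (adjusted p = 0.0414). They were the 2 growth factor responsive genes of 15 that passed, beside 0.661% of all genes higher (list median 0.90, against -0.03 for all genes). With the block 9 were higher and 1, the cyclin gene Ccnd1, was lower (-0.38), beside 3.30% and 5.34% of all genes. All 14 microglia markers were lower in this comparison too (median -0.43, 8 past the threshold with the block and 0 without it), and their part in it was not tested. Socs4 rose by 0.36 ± 0.07 (adjusted p = 0.0441). The other 4 lists had 0 past the threshold without the block. With it the neuregulin gene Nrg1 (0.44), Braf (0.41) and Spred1 (0.39) were higher, and Cd9 (-0.46) and the kinase gene Akt1 (-0.33) were lower. The genes that passed with the block alone, Ccnd1 included, were named after their values were seen. In the comparisons of interferon-γ and of SHP siRNA 0 of the 72 passed without the block, and with it Plk2, a polo-like kinase gene (1.20, limma adjusted p = 0.008), rose with interferon-γ, beside 0.595% of all genes; it too was named after its value was seen.

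**Figure D4:**
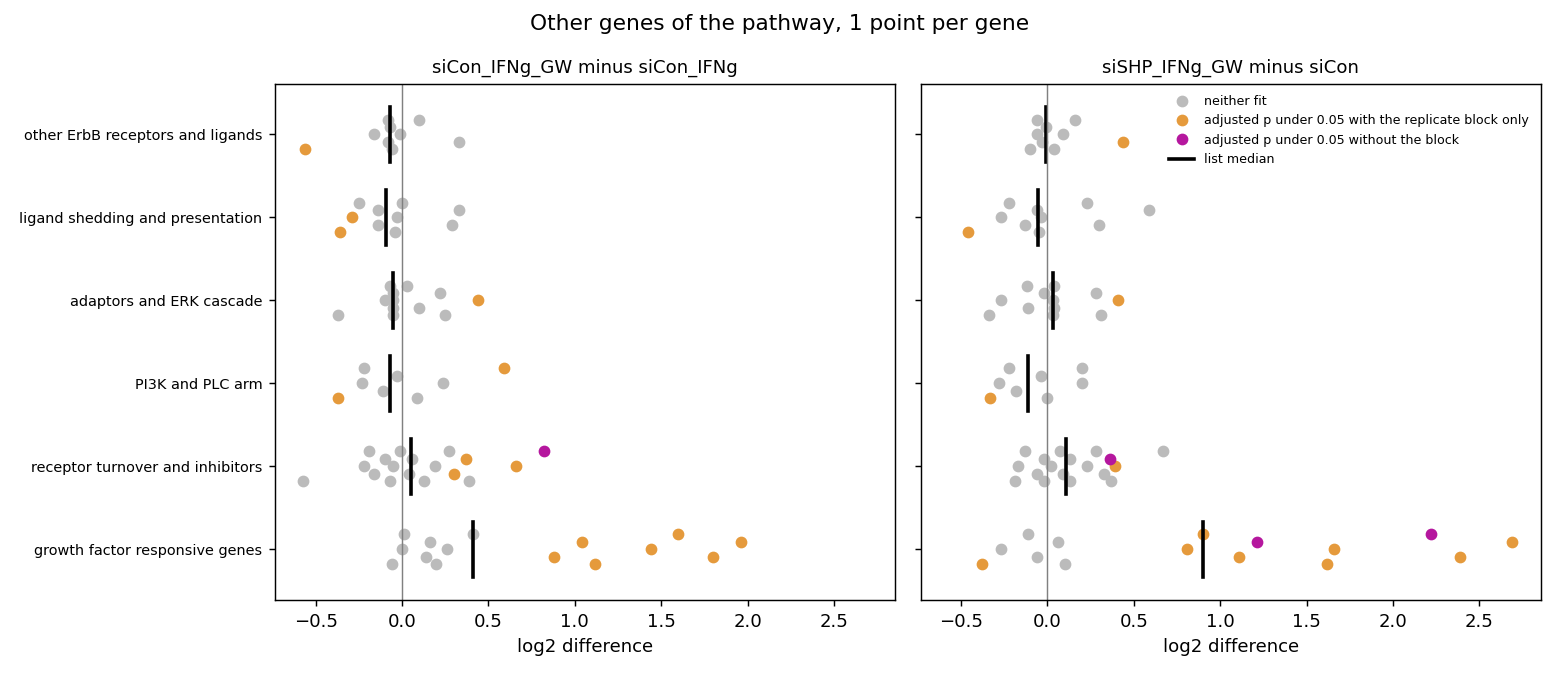
Log2 difference of 72 other pathway genes in 2 comparisons, by list, with 1 point per gene, colours for the fits in which it passed and a bar for the list median. Growth factor responsive genes have medians of 0.41 (left) and 0.90 (right); the other lists have medians of -0.11 to 0.11.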

How the data were processed

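RNA was measured on whole-transcript arrays with biotin-labelled sense cDNA, per the labels' protocols. The authors deposited 1 log2 value for each array and transcript cluster. The log base was read from their range, 1.01 to 13.43, and the background correction, normalization and summarisation are not given in the sources used here. Column medians over all rows were 5.51 to 5.67, and genes were not centred. Per the series text 4 arrays were re-used from earlier work, with no word on which.

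Of 36685 rows, 18511 were paired with 1 gene, 575 with several and 17599 with none; 18394 matched RefSeq (GRCr8) by Entrez ID, with 0 symbols changed. The row with the highest mean was used for 291 genes with several. Columns of other samples numbered 0.

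Differences came from limma 3.58.1 in R 4.3.3 (lmFit on 4 group means over 12 arrays, contrasts, eBayes), with Benjamini-Hochberg adjustment over 18166 genes and a threshold of 0.05. SEs and intervals come from this fit, which leaves the pairing by title number out, unless the block is named. The fit was also run on simulated data with independent noise on each array. Those data lack the correlation between arrays of the same number, so the run does not show how the fit behaves under it. Figures used matplotlib 3.10.9. The number of arrays limits the precision. Adding genes with symbols starting Or to the background set (1344 genes), chosen after seeing the data, gave 5.34.

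The members, the pathway and marker lists, the tests and the alternatives were chosen with earlier results of these data known. Named were the 7 members in each comparison, list genes past the threshold (at most 4 per list and comparison), the genes most like each member above background (5 for Hbegf, 2 for others) and Nr0b2. Deviations from group means correlated between arrays of the same number by 0.63 to 0.77 (number 1), 0.48 to 0.58 (number 2) and 0.43 to 0.55 (number 3), and the numbers were taken to pair the arrays. The alternatives were the block, centring, a filter on low values, the mean of rows, only the arrays compared, a variance trend and leaving arrays out.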

Additional observations from a re-analysis of the deposited data

How the results depend on the processing

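All family differences that passed in any fit kept their direction under every alternative run. Members past the threshold numbered 2 with GW (siCon_IFNg_GW against siCon_IFNg), 1 on only the 6 arrays compared, and 0 to 3 with arrays left out. In siSHP_IFNg_GW against siCon they numbered 2, 3 with the replicate block, 1 on only the 6 arrays, and 0 to 4 with arrays left out. In the other comparisons 0 passed under each alternative. For all genes the counts in siCon_IFNg against siCon were 22 (15 higher, 7 lower), 170 with the replicate block, 7 on only the 6 arrays, and 0 to 856 with arrays left out; centring on medians gave 12 higher and 3 lower. With GW they were 161, 1189 with the block, 79 after centring, 4 on only the 6 arrays, and 0 to 2081 with arrays left out. For SHP siRNA the count was 0, and 0 to 267 with arrays left out. In siSHP_IFNg_GW against siCon it was 218 (120 higher, 98 lower), 1570 with the block, 109 after centring (75 and 34), 100 on only the 6 arrays, and 0 to 1937 with arrays left out. The high ends are the counts without replicate 1 and the low ends include those without replicate 2 or 3; the cause was not tested. The block changed no other call of a member than that of Ereg. Tgfa and Btc lay near background, which limits what their values show.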
